A study of Homo sapiens with 30 samples.

Results

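The 6 arrays of the MDA-MB-231 BMP7 time course were analyzed, out of 30 BMP7 arrays of 5 breast cancer cell lines, with 6 arrays in each of the other 4 lines (HCC1954, MDA-MB-361, T-47-D and ZR-75-30). They were chosen by their cell line label. MDA-MB-231 is an established line of breast adenocarcinoma cells that lacks the estrogen receptor and has a mesenchymal shape. The cells were kept in medium with 1% FBS and treated with recombinant human BMP7 (50 ng/ml) or with vehicle alone, for 6 durations between 30 min and 24 h. The other lines had the same dose and times but not this medium. T-47-D had an FBS level of its own and the rest the recommended conditions, so line and serum cannot be told apart. The lines were picked by the study for low BMP7 of their own. On each array the vehicle-treated cells carried Cy3 and the BMP7-treated cells Cy5, and the cells of 3 cultures were pooled, so every time point rests on 1 array. Values are log2 ratios of BMP7 over vehicle, where 1 stands for a 2-fold higher level in the treated cells. The question was which genes differed from vehicle at 3 and 6 h and at 12 and 24 h more than they did in the first hour. The 30 min and 1 h arrays served as the reference window, and the time points of a window stood in for replicates, so the spread in each test holds any change between its time points.

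BMP7 is a secreted ligand of the TGF-β superfamily. It binds type I and type II serine-threonine kinase receptors, which phosphorylate SMAD1, SMAD5 and SMAD9, and these join SMAD4 and enter the nucleus. The ID genes are the best known direct targets: they encode helix-loop-helix proteins without a DNA-binding part, which hold basic helix-loop-helix factors off DNA. The inhibitory SMADs, SMAD6 and SMAD7, and secreted antagonists such as noggin and chordin limit the signal.

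The signal differed between the arrays of this line. Both channels were well above background for 57.6% to 68.3% of the probes, with the lowest share on the 6 h array, which also had 2741 outlier-marked spots against 127 to 525 on the others. The 30 min and 6 h arrays lay on 1 slide, the 1 h and 3 h arrays on another, and the 12 h and 24 h arrays on one more, so the 12-24 h window and its slide cannot be told apart, whereas 3 h and 6 h each had a first-hour array on their own slide. Among 20048 probes that were bright on all 6 arrays, the SD of the log2 ratio was 0.40 at 12 h and 0.38 at 24 h, and between 0.15 and 0.19 on the other 4. The vehicle channel matched the label for most of the listed markers. VIM, AXL, CAV1, MSN, LOX and CDH11, which mark mesenchymal cells, were higher on all 6 MDA-MB-231 arrays than on any of the 24 arrays of the other lines. Of 14 luminal markers 9, FOXA1, GATA3 and CDH1 among them, were lower on all 6. CD44 and TGFBI overlapped, and so did SPARC, which was above background on 2 of the 6 arrays. The other 5 luminal markers, ESR1, KRT18, KRT19, TFF1 and TFF3, overlapped as well. The vehicle signal of ESR1, the estrogen receptor gene, was above background on 5 of the 6 arrays, with a median of -4.75 against -3.57 in the other lines.

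ATOH8, ID1, ID2 and ID3 were the named genes that stood at least 2-fold above vehicle at both 12 h and 24 h among the probes bright on all 6 arrays. Because they moved together, the 250 bases before their transcription starts are shown, as given by RefSeq on GRCh38.p14 and written 5′ to 3′ on the strand of the gene. Capitals mark GTCT or its reverse complement AGAC, the short box that SMAD proteins are known to bind. The stretches are ID1 at chr20:31605039-31605288 (plus strand), ID2 at chr2:8681806-8682055 (plus), ID3 at chr1:23559502-23559751 (minus) and ATOH8 at chr2:85753741-85753990 (plus).
ID1: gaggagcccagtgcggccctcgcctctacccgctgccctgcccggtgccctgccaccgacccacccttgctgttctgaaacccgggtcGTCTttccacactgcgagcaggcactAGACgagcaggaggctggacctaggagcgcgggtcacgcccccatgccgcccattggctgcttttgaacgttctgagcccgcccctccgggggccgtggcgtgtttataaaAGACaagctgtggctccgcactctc
ID2: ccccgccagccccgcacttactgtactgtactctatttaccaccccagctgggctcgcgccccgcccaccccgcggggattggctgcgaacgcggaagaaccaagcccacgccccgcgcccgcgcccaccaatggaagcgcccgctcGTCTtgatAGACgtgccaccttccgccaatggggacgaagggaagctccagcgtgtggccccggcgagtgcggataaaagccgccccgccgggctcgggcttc
ID3: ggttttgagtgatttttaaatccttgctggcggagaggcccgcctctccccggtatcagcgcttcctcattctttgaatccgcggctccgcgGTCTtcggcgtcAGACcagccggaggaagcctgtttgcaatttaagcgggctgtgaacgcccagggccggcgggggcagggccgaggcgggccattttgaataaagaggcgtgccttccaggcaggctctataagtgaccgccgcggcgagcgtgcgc
ATOH8: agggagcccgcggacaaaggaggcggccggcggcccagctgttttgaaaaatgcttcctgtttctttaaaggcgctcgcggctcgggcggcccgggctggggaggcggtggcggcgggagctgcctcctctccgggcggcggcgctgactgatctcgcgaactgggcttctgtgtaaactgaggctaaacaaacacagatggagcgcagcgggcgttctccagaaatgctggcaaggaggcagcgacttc
The box occurred 3 times in the ID1 stretch, 2 times each in those of ID2 and ID3, and 0 times in that of ATOH8. It is common: 77.5% of 35116 RefSeq promoters of this length held it at least once. GGCGCC, a palindrome that the SMAD proteins of the BMP branch are known to bind, occurred in none of the 4 stretches and in 16.4% of all. A match describes the letters of the window and is no measured binding site. Bases further upstream were not searched, so no match here does not mean that a gene lacks the site.

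The ID genes were above vehicle on every array from 1 h on, and stood highest at 24 h. ID1 (probe at chr20:29657819-29657878 in hg18, the build of the files) read 0.09 and 1.06 in the first hour (30 min and 1 h), 1.91 and 0.54 at 3 and 6 h, and 2.10 and 2.62 at 12 and 24 h. Its 6 h value lay below its 1 h value, so the first hour and the later arrays overlapped, whereas the 12-24 h arrays lay above both first-hour arrays. ID3 (chr1:23758253-23758312) read 0.10, 0.48, 1.46, 0.84, 1.83 and 2.35 in the same order of time. All 4 later arrays of ID3 lay above both first-hour arrays. ID2 had a brighter probe that read 0.21, 0.60, 1.35, 0.67, 1.75 and 2.0. A second ID2 probe (chr2:8741733-8741792), bright on 5 of the 6 arrays, read 0.11, 0.90, 2.07, 1.2, 1.80 and 2.57. Both ID2 probes had every later array above the first hour. ID4 was not well above background in both channels on any of the 6 arrays.

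Expressed as folds, the 24 h array gave 6.15-fold for ID1, 5.09-fold for ID3 and 4.0-fold for the brighter ID2 probe. None of these differences passed the adjusted threshold in the limma test across 25509 probes. Between the 12-24 h window and the first hour, ID3 differed by 1.80 ± 0.31 (SE; adjusted p = 0.103), the brighter ID2 probe by 1.47 ± 0.27 (adjusted p = 0.145) and ID1 by 1.78 ± 0.44 (adjusted p = 0.937). Between the 3-6 h window and the first hour, the differences were 0.86 ± 0.31 for ID3, 0.60 ± 0.27 for ID2 and 0.64 ± 0.44 for ID1, each with an adjusted p of 1.00. Over all 4 later arrays, 3 of the 3 ID genes measured had an unadjusted p under 0.05, against 0.537% of all probes tested, and 2 of the 3 had no overlap of the groups upward, against 6.95% of the probes with a value on every array. At 12-24 h, 3 of the 3 had none, against 16.6%. Within slides, ID3 stood 0.98 higher at 3 h than at 1 h and 0.74 higher at 6 h than at 30 min, and ID1 0.84 and 0.44 higher. Within scan batch 1, the 3, 12 and 24 h arrays averaged 1.40 above 1 h for ID3, 1.10 for ID2 and 1.15 for ID1. Within batch 2 the 6 h array stood 0.74, 0.46 and 0.44 above 30 min. Of this line, batch 2 held only these arrays of 1 slide, so its values for ID3 and ID1 repeat those within slides. The later difference of the brighter ID2 probe was 1.04, and 0.68 and 0.72 with normexp and loess or median scaling. For the second ID2 probe these values were 1.41, 0.88 and 0.86. They were 1.33, 1.23 and 1.34 for ID3 and 1.21, 1.13 and 1.35 for ID1.

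**Figure D1:**
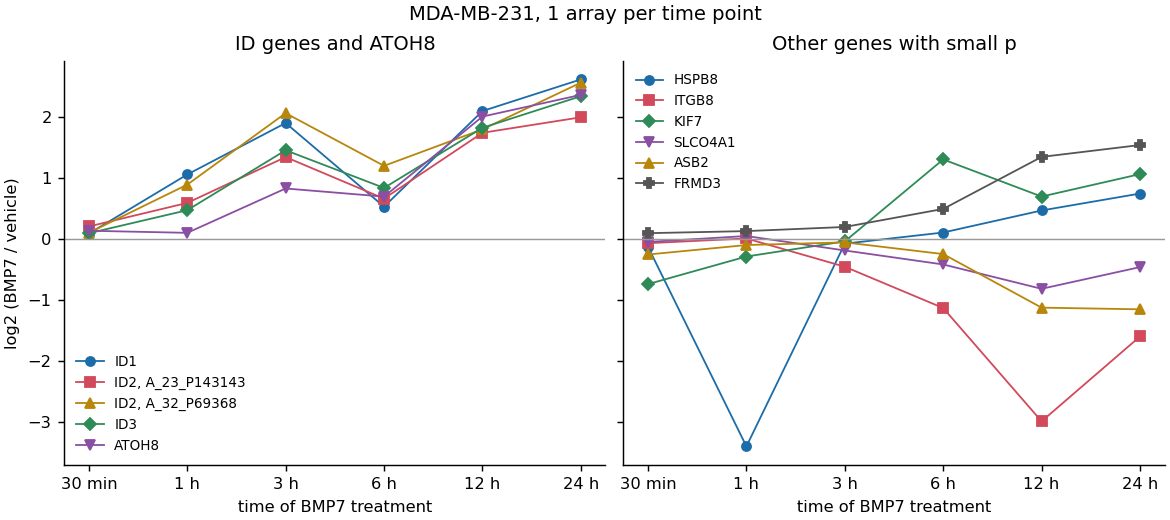
Log2 ratio of BMP7 over vehicle (vertical axis) at each of the 6 time points (horizontal axis) in MDA-MB-231, 1 array per point, with no error bars since no time point was repeated. On the left, both ID2 probes, ID1, ID3 and ATOH8 lay between 1.75 and 2.62 at 12 and 24 h; on the right, HSPB8 read -3.39 at 1 h and ITGB8 -2.98 at 12 h.

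ATOH8, a basic helix-loop-helix transcription factor, was the only gene that rose past the threshold, in the 12-24 h window. It read 0.14 and 0.11 in the first hour, 0.83 and 0.70 at 3 and 6 h, and 2.01 and 2.37 at 12 and 24 h (probe at chr2:85868379-85868438). The 2 first-hour arrays were nearly equal, both 3-6 h arrays lay above them, and both 12-24 h arrays lay above the 3-6 h arrays. The 12-24 h difference from the first hour was 2.07 ± 0.22 (SE; limma, adjusted p = 0.00604). The 3-6 h difference was 0.64 ± 0.22 (adjusted p = 1.00) and the step from 3-6 h to 12-24 h was 1.42 ± 0.22 (adjusted p = 0.439). The call was lost with normexp background correction and loess (1.47, adjusted p = 0.168) or median scaling (1.45, adjusted p = 1.00), with the 6 arrays alone (2.07, adjusted p = 0.601), with scan batch as a term (2.01, adjusted p = 0.0985) and without the 30 min, 1 h, 3 h or 6 h array (2.05 to 2.08, adjusted p from 0.0712 to 1.00). Within scan batch 2, which held the 30 min and 6 h arrays, ATOH8 stood 0.56 higher at 6 h, and within batch 1 the 3, 12 and 24 h arrays averaged 1.63 above 1 h.

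Probes named in the files only by a transcript sequence, chosen here after their values were seen, lay beside these genes in hg18 and had similar ratios. THC2632909 (chr2:85871928-85871987), placed close after the ATOH8 probe, read 0.23, 0.48, 1.07, 1.19, 2.49 and 4.46 in order of time and was bright on 5 arrays, all but the 12 h array. Its 24 h value exceeded those of the ID genes, and its 12-24 h difference of 3.11 ± 0.52 did not pass the adjusted test (adjusted p = 0.263). CN479126 (chr20:29657031-29657090), beside the ID1 probe, read -0.23, 0.95, 1.52, 1.81, 1.72 and 2.55, and was not bright at 6 h. AW327568 (chr1:23757351-23757410), beside the ID3 probe, read 0.07, 0.74, 1.90, 2.06, 2.63 and 2.55 but was bright on only 3 arrays and was not tested.

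The 2 channels behind the ratios were also set side by side, as log2 signals relative to the 75th percentile of each channel of each array, which makes levels of 1 probe comparable between arrays only as far as that scaling holds. The ID3 signal of BMP7-treated cells stayed between 0.04 and 0.39 over the 6 arrays. The ID3 signal of vehicle-treated cells read -0.06, -0.20, -1.20, -0.57, -1.60 and -1.96 in order of time. The distance between the channels therefore widened on the vehicle side for this probe. ID1 differed on both sides: from 30 min to 24 h its vehicle signal went from 3.12 to 1.90 and its BMP7 signal from 3.20 to 4.53. For ATOH8 the vehicle signal was -3.86 at 30 min and -3.98 at 24 h, and the BMP7 signal -3.72 and -1.61. These levels have no replicate and were not tested.

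**Figure D2:**
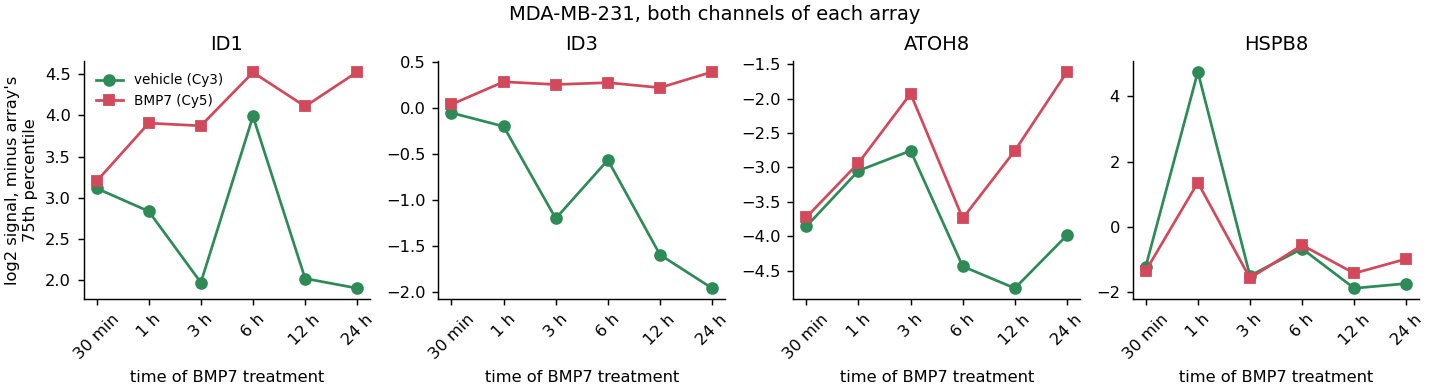
Log2 signal minus the 75th percentile of the same channel and array (vertical axis) at each time point (horizontal axis) for the vehicle channel (Cy3, circles) and the BMP7 channel (Cy5, squares) of the MDA-MB-231 arrays, each panel with its own scale. ID3 shows a level BMP7 channel between 0.04 and 0.39 over a vehicle channel that reached -1.96 at 24 h, and HSPB8 a vehicle signal of 4.75 at 1 h.

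Across all probes, the tests called few changes. For the 4 later arrays against the first hour, 0 of 25509 probes passed an adjusted p of 0.05 (0% of those tested), with 137 at an unadjusted p under 0.05, 75 of them higher. For 3-6 h against the first hour 0 passed (85 unadjusted, 0.333%), and for 12-24 h against 3-6 h 0 passed (199 unadjusted, 0.78%). For 12-24 h against the first hour 1 passed, ATOH8 (0.00392%; 294 unadjusted, 1.15%). All of these unadjusted shares lay below the share that a threshold of 0.05 passes where nothing differs, so the tests were cautious. A small count is therefore no sign that few genes changed. The counts past the adjusted threshold turned on the pair of 12 h and 24 h arrays. With the 12 h array left out, 480 probes passed for the later arrays, 4524 for 12-24 h against the first hour and 5397 for 12-24 h against 3-6 h; with the 24 h array left out, 3990, 8862 and 6988 passed. In those fits the remaining 12-24 h array was assumed to vary like the rest of the line. The mean array weight of MDA-MB-231 was 1.90 there, against 0.56 with all 6 arrays. For the later arrays most probes passed in only 1 of these fits. Of those that passed without 12 h and also without 24 h, most kept their direction and some reversed. Without the 30 min array, HSPB8 passed in the later, 3-6 h and 12-24 h comparisons and ATOH8 did not. Without the 1 h, 3 h or 6 h array, 0 passed in all 4 comparisons.

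Beside the ID genes and ATOH8, the smallest p-values over the later arrays belonged to HSPB8, ITGB8, KIF7 and SLCO4A1, and none of them passed (each adjusted p = 1.00). HSPB8, a small heat shock protein, read -0.12, -3.39, -0.07, 0.11, 0.47 and 0.75 in order of time. A single array set it apart, and there both channels were high: the scaled vehicle signal at 1 h was 4.75, against -1.88 to -0.67 on the other 5 arrays, and the BMP7 signal 1.36, against -1.57 to -0.56. Its later difference of 2.08 ± 0.50 was 3.78 within scan batch 1, which held the 1 h array, and 0.24 within batch 2, and it was 0.44 without the 1 h array.

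ITGB8, a subunit of an integrin that activates latent TGF-β, read -0.06, 0.01, -0.45, -1.13, -2.98 and -1.59. Its later arrays all lay below the first hour, with a difference of -1.51 ± 0.32 (-0.71 and -0.80 with normexp and loess or median scaling), on a probe that was bright on 4 of the 6 arrays. The other 3 ITGB8 probes were bright on at most 1 array. KIF7, a kinesin of the hedgehog pathway, read -0.73, -0.28, -0.03, 1.31, 0.70 and 1.07, also on 4 bright arrays. Its later difference was 1.27 ± 0.32, with both first-hour values below 0, and was 0.40 after normexp with loess and 0.39 after normexp with median scaling. SLCO4A1, an organic anion transporter, read -0.04, 0.05, -0.18, -0.41, -0.81 and -0.45, and every later array lay below the first hour (difference -0.47 ± 0.15, and -0.29 with normexp and loess). The SLCO4A1 probe was not bright on all 6 arrays either. Within scan batches 1 and 2 the later difference was -1.69 and -1.06 for ITGB8, 0.86 and 2.04 for KIF7, and -0.54 and -0.37 for SLCO4A1.

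Between 3-6 h and 12-24 h, the smallest p-values after ATOH8 belonged to ASB2, SRCIN1, FRMD3, ITGB8 and FAM3B, each with an adjusted p of 1.00. ASB2, the substrate-binding part of a ubiquitin ligase, read -0.25, -0.09, -0.05 and -0.24 up to 6 h and then -1.12 and -1.15. The 12 h and 24 h arrays were nearly equal, at -0.99 ± 0.19 against 3-6 h. FRMD3, a FERM domain protein, read 0.10, 0.14, 0.20, 0.50, 1.35 and 1.55. A probe named BG216229, which lies on the same chromosome as the FRMD3 probe (chr9:85052527-85052587 and chr9:85103853-85103912), read -0.02, 0.03, 0.17, 0.22, 1.64 and 1.07. Both were low through 6 h and at least 2-fold above vehicle at 12 and 24 h. The probes of FRMD3, FAM3B and SRCIN1 were not bright on all 6 arrays. BC021996 (chr6:68647823-68647882), also chosen after its values were seen, had the same course, with 0.18, 0.25, 0.60, 0.37, 1.70 and 2.0. FAM3B, a secreted cytokine-like protein, read 0.50 and 0.44 at 3 and 6 h and -0.09 and -0.25 at 12 and 24 h, and SRCIN1, an inhibitor of SRC, was 0.94 ± 0.25 higher at 12-24 h than at 3 h, its 6 h spot being left out as an outlier. With that spot kept the SRCIN1 difference was 0.28, and with normexp and loess it was 0.26 for SRCIN1 and -0.16 for FAM3B, against -0.64 as deposited.

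The 12 h and 24 h arrays, side by side on 1 slide, ran against each other for many genes. Over the 20048 probes bright on all 6 arrays, their log2 ratios had a Pearson's r of -0.40, across probes and not across samples, whereas the other pairs of arrays of the line ranged from -0.11 to 0.52. The direction was kept because the methods give the same dyes for both arrays. Whether either array was exchanged or turned was not tested. At 1.5-fold, 257 probes were higher at 12 h and lower at 24 h and 319 the reverse, against 24 higher and 28 lower on both. At 2-fold, 8 probes ran in opposite directions (0.0399%) and 8 in the same direction (0.0399%). Of the latter, 7 were higher, namely ID1, ATOH8, ID3, ID2, BC021996, BG216229 and a probe with no gene name, and 1 was lower, ASB2.

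Those that ran in opposite directions, chosen after their values were seen, included ASAP1, a GTPase-activating protein of the cell edge, with 1.30 at 12 h and -1.02 at 24 h. PRKDC, the catalytic subunit of the DNA-dependent protein kinase, read 1.01 and -1.23, and MAP4K3, a kinase of amino acid sensing, 1.06 and -1.25. CFL2, which severs actin filaments, read -1.03 and 1.07, and AFG2B, an ATPase, -1.18 and 1.18. On the 4 earlier arrays these 5 genes stayed between -0.29 and 0.25. The size of the opposition depended on the processing: r was -0.35 after normexp and loess and -0.12 after normexp and median scaling. The part of the slide, the hybridization or the cultures in it was not tested.

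**Figure D3:**
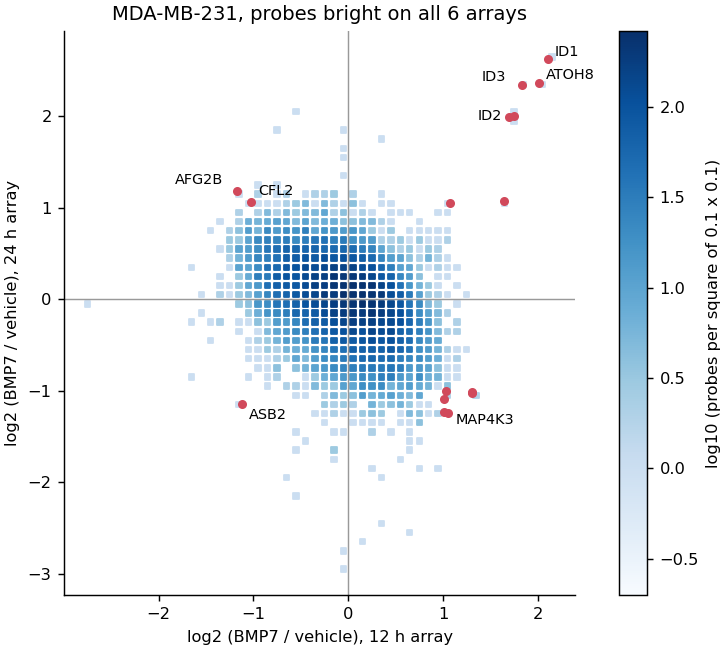
Log2 ratio of BMP7 over vehicle at 12 h (horizontal axis) and 24 h (vertical axis) for 20048 probes bright on all 6 MDA-MB-231 arrays, in squares of 0.1 by 0.1 shaded by the log10 number of probes, with the 16 probes at least 2-fold from vehicle on both arrays as red points. The cloud leans from upper left to lower right (r = -0.40), and the ID genes and ATOH8 lie apart from it at the upper right.

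On single arrays, 2-fold differences were rare until 12 h. Among probes bright on the array, 8 were higher and 6 lower at 30 min (0.0316% and 0.0237%) and 24 and 2 at 1 h (0.0895% and 0.00746%). At 3 h 34 were higher and 11 lower (0.122% and 0.0394%), and at 6 h 12 and 0 (0.0566% and 0%). At 12 h 83 were higher and 223 lower (0.322% and 0.865%), and at 24 h 113 and 255 (0.426% and 0.962%). These counts sum to 771 over the 6 arrays, have no replicate check, and were 474 after normexp and loess.

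None of the feedback genes of the pathway that could be tested passed in any of the comparisons. SMAD7, the inhibitory SMAD that recruits ubiquitin ligases to the receptors, read -0.05, 0.30, 0.27, 0.01, 0.81 and 0.01, so that the 12 h array alone stood apart. SMAD6 was bright on only 2 arrays and read 0.50 at 24 h. SMURF1 and SMURF2, the ligases that partner SMAD7, read 0.82 and 1.06 at 12 h and -0.13 and -0.39 at 24 h. BAMBI, a pseudoreceptor, read -0.54 at 12 h and 0.80 at 24 h, in the opposite order. The 12 h and 24 h arrays thus overlapped the first hour or lay on both sides of it for SMAD7, SMURF1, SMURF2 and BAMBI. Of the secreted antagonists, chordin (CHRD) had the largest later difference, -0.48 ± 0.35, with -1.23 at 24 h (-0.28 with normexp and loess), and noggin (NOG), follistatin (FST) and BMPER differed by -0.05 ± 0.31, 0.02 ± 0.18 and 0.08 ± 0.22.

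Further members of this list gave later differences of 0.11 ± 0.19 for FSTL3, 0.08 ± 0.22 for CRIM1, 0.04 ± 0.23 for SOST, -0.29 ± 0.24 for DAND5 and -0.36 ± 0.29 for TWSG1, all binders of BMPs or related ligands. The transcriptional repressors SKI, SKIL and TGIF1 gave -0.00 ± 0.28, 0.04 ± 0.23 and -0.04 ± 0.25, and TOB1, which binds SMADs, -0.08 ± 0.18. Of the 22 listed genes 18 were measured. Over the later arrays 0 passed the adjusted limma test and 0 the unadjusted one, against 0% and 0.537% of all probes tested. Of 17 with a value on every array, 0 kept all later arrays on 1 side of the first hour. Among all such probes 6.95% lay above and 4.31% below. Whether the list differs from these shares was not tested. GREM1, CHRDL1 and SOSTDC1 were bright on too few arrays to be tested. The median later difference of the list was 0.04, against -0.01 over all probes tested.

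No SMAD, receptor or ligand gene passed the adjusted test. All 6 listed SMADs were bright on every array. Of these 1, SMAD9, had an unadjusted limma p under 0.05, against 0.537% of all probes tested. SMAD9, a receptor-activated SMAD of the BMP branch, read -0.25, -0.34, -0.13, 0.30, 1.09 and 0.26, all later arrays above the first hour (0.67 ± 0.29, adjusted p = 1.00; 0.25 after normexp with loess and 0.27 after normexp with median scaling). SMAD1 and SMAD4 differed by -0.34 ± 0.34 and -0.17 ± 0.27, and both had opposite signs at 12 h and 24 h. Of 14 receptor genes 11 were measured and 0 passed, against 0% of all probes tested. All later arrays lay above the first hour in 1 of 11 and below it in 0, against 6.95% and 4.31% of all probes. The type I receptor ACVR1 read 0.24 at 12 h and -0.83 at 24 h, and the receptor list had a median of -0.34 at 24 h. Of 15 ligand genes 11 were measured. Among 9 with a value on every array, all later arrays lay below the first hour in 2 and above it in 0. BMP7 itself was bright on 0 of the 6 arrays. GDF15, a stress-induced ligand of the family, read -0.27, -0.08, -0.28, -0.32, -1.07 and -0.81, every later array below the first hour (-0.44 ± 0.24, adjusted p = 1.00). TGFB3, on a probe bright on 5 arrays, differed by -0.28 ± 0.18. With normexp its difference was -0.06 after loess and -0.09 after median scaling.

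Among the transcription factors known as BMP targets in other cells, 17 of 24 were measured. Of these 1, ATOH8, had an unadjusted limma p under 0.05, against 0.537% of all probes tested. All later arrays lay above the first hour in 3 of 14, ATOH8 among them, against 6.95% of all probes. The other two were GATA2, which read 0.15, 0.15, 0.35 and 0.51 from 3 h to 24 h after -0.01 and -0.09, and PRDM1, a zinc finger repressor, with a later difference of 0.28 ± 0.20, which was -0.09 with normexp and median scaling. GATA6 differed by -0.30 ± 0.24.

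Outside the pathway, cytokines and chemokines had the lowest median of the lists at 12 h, -0.50, and 0.06 at 24 h. IL6, an inflammatory cytokine, read 0.22, 0.26, -0.30, -0.19, -0.70 and -0.52. Every later array of IL6 lay below the first hour, and the difference of -0.67 ± 0.20 had an adjusted p of 1.00. IL1B differed by -0.43 ± 0.21 (-0.24 with normexp and loess) with every later array lower. CXCL8, a neutrophil chemokine, was at -1.33 at 12 h and 0.09 at 24 h, on a probe bright on 4 arrays. The later difference of CXCL8 was -0.56, and -0.13 with normexp and loess. Of 14 measured genes 1 had an unadjusted limma p under 0.05, against 0.537% of all probes tested. All later arrays lay below the first hour in 2 of 13, against 4.31% of all probes.

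Among immediate early genes, 5 of 25 had all later arrays below the first hour and 0 had them above, against 4.31% and 6.95% of all probes. ATF3, a stress-induced factor, read 0.19 and 0.39 in the first hour and then 0.02, -0.14, -0.50 and -0.14 (-0.48 ± 0.20, adjusted p = 1.00). DUSP1, a phosphatase of MAP kinases, differed by -0.41 ± 0.26 and MYC by -0.37 ± 0.30, which was -0.11 with normexp and median scaling. In ATF3 and DUSP1 part of this difference was a first hour above vehicle, where DUSP1 read 0.24 and 0.40.

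The remaining lists had later medians between -0.13 and 0.04. The mesenchymal and invasion genes, 26 measured, had a median of -0.03; TIMP1, an inhibitor of metalloproteinases, read 0.79 at 12 h and -0.36 at 24 h, and SNAI2, a transcriptional repressor, differed by -0.26 ± 0.22. The proliferation genes, 26 measured, had a median of -0.03, with AURKA, a mitotic kinase, at 0.25 ± 0.19. The cell cycle inhibitor CDKN1A differed by 0.21 ± 0.25, with 0.81 at 12 h and -0.01 at 24 h. Of the sterol and fatty acid genes, 17 measured with a median of -0.13, SQLE read -1.02 at 12 h and 0.37 at 24 h. Of the hypoxia and glycolysis genes BNIP3 and VEGFA differed by -0.26 ± 0.18 and -0.20 ± 0.18, and of the stress genes HSPA5, a chaperone, by 0.17 ± 0.21. DNAJB1 (heat shock, 0.31 ± 0.22), DBP (circadian clock, 0.27 ± 0.23), OAS1 (interferon response, 0.23 ± 0.48) and MT2A (a metallothionein, 0.13 ± 0.25) had the differences given. In these lists 0 members had an unadjusted limma p under 0.05, against 0.537% of all probes tested.

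**Figure D4:**
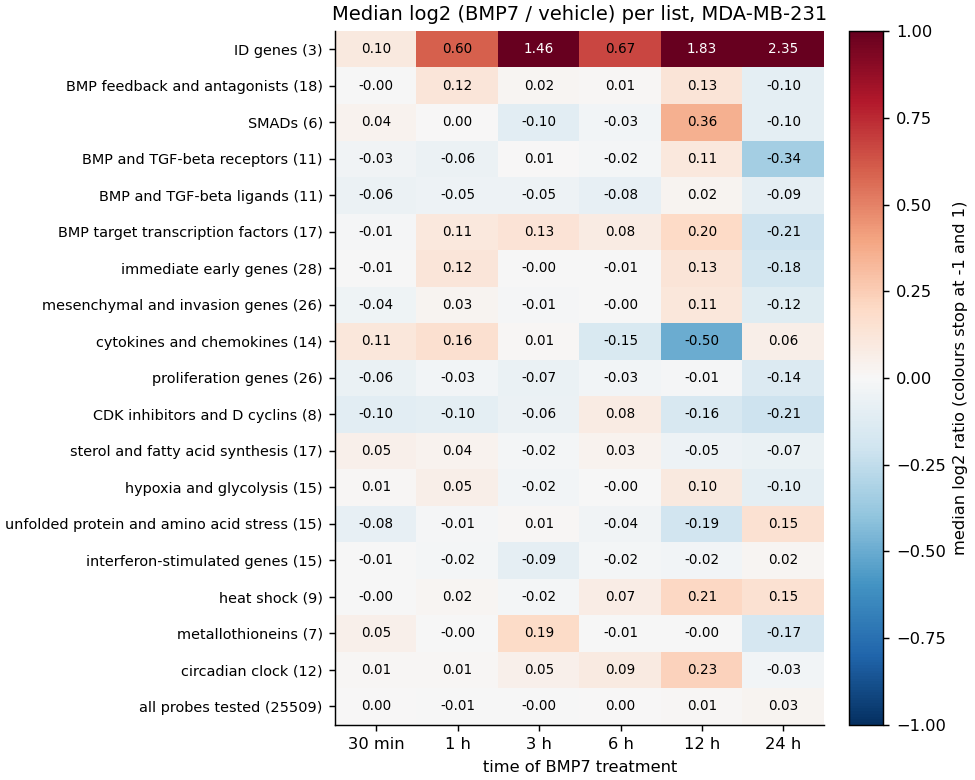
Median log2 ratio of BMP7 over vehicle for each gene list (rows, number of measured genes in brackets) on each MDA-MB-231 array (columns), 1 probe per gene, with colours that stop at -1 and 1. The ID genes reached medians of 1.83 and 2.35 at 12 and 24 h, and the largest value of any other list in size was -0.50, for cytokines and chemokines at 12 h.

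In the other 4 lines the ID genes read on both sides of vehicle, mostly above, and at 12 and 24 h MDA-MB-231 stood above all of them. For ID3 the highest of the 24 other arrays was 1.21, in MDA-MB-361 at 6 h, and the highest at 12 or 24 h was 0.98, against 1.83 and 2.35 in MDA-MB-231. For ID1 the highest elsewhere was 1.89, in MDA-MB-361 at 6 h, and 1.15 at 12 or 24 h. For the brighter ID2 probe these were 1.25 and 1.18. At 3 h the lines lay closer, with ID2 at 1.35 in MDA-MB-231 and 1.25 in MDA-MB-361. ATOH8 was bright on 15 of the 24 other arrays, where it read at most 1.15. The test of the difference between MDA-MB-231 and the mean of the other lines, over all later arrays, gave 0.70 ± 0.28 for ID3, 0.54 ± 0.24 for ID2 and 0.46 ± 0.40 for ID1, each with an adjusted p of 1.00. Restricted to 12-24 h, a choice made after the values were seen, it gave 1.25 ± 0.32 for ID3, 1.03 ± 0.28 for ID2 and 1.10 ± 0.46 for ID1, again with an adjusted p of 1.00. ATOH8 was bright on too few arrays of HCC1954 and T-47-D to enter this test. MDA-MB-231 also differed from the other lines in the serum of its medium, which these comparisons cannot tell apart from the line.

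**Figure D5:**
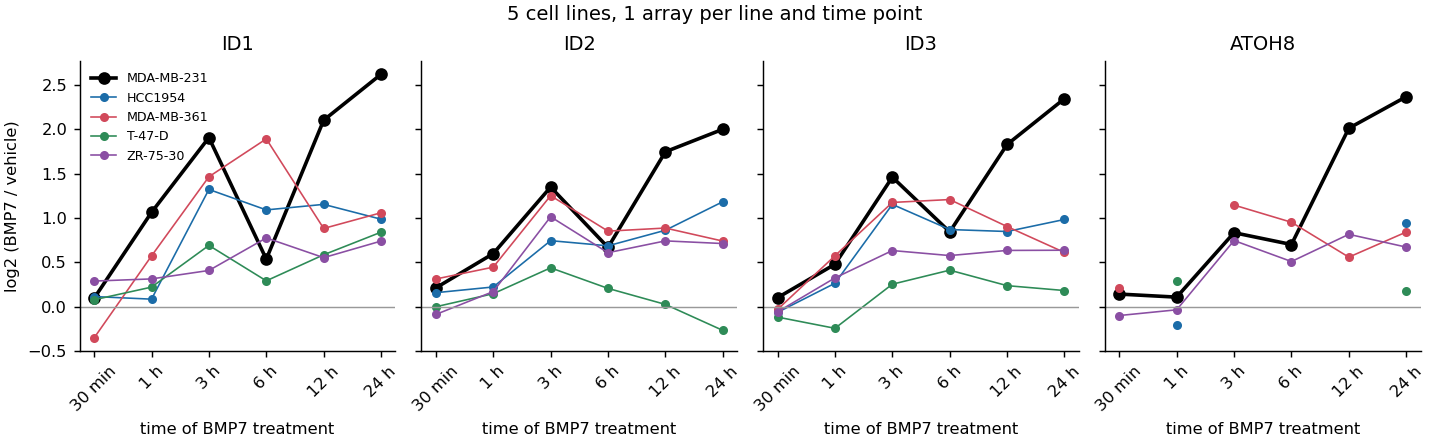
Log2 ratio of BMP7 over vehicle (vertical axis) at each time point (horizontal axis) in 5 cell lines, 1 array per point, for ID1, the brighter ID2 probe, ID3 and ATOH8, with spots not well above background in both channels left out. The MDA-MB-231 points (black, thick line) lay above all other lines at 12 and 24 h, and for ID1 at 6 h MDA-MB-361 read 1.89 against 0.54.

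Across 21013 probes bright in every line, 0 passed the test of a difference from the other lines (0%; 109 at an unadjusted p under 0.05, 0.519%). The count was 10 without the 12 h array of MDA-MB-231 and 1477 without its 24 h array. Without the 30 min array it was 1, HSPB8. The smallest p-values belonged to SLCO4A1 (-0.58 ± 0.15), HSPB8 (1.82 ± 0.53), EDN2 (-1.39 ± 0.42), SPNS2 (-0.67 ± 0.23), VCY (0.98 ± 0.33), MAP3K5 (-0.58 ± 0.21), BMF (-0.62 ± 0.22) and IGSF9 (0.60 ± 0.22), each with an adjusted p of 1.00. EDN2, a vasoactive peptide, read 0.04, 0.26, 0.03, -0.55, -0.82 and -1.0 in MDA-MB-231. Its later difference there was -0.73 ± 0.40, while it was 0.60 in HCC1954, 1.10 in MDA-MB-361, 0.63 in T-47-D and 0.31 in ZR-75-30. MAP3K5, a kinase of stress signaling, read -0.64 at 12 h and 0.13 at 24 h, and its difference was -0.39 without the 12 h array. With normexp and median scaling the differences from the other lines were -0.09 for SLCO4A1, -0.65 for EDN2, -0.04 for SPNS2, -0.11 for MAP3K5 and -0.31 for BMF, and with normexp and loess 0.57 for VCY and 0.13 for IGSF9. VCY has near-identical copies on the X chromosome, so its signal cannot be assigned to 1 gene.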

How the data were processed

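The deposited files are the scanner output of each array. Their log10 ratios of Cy5 (BMP7) over Cy3 (vehicle) and the processed intensities of both channels are, per the file headers, corrected for background and for dye by Agilent Feature Extraction (linear and lowess steps). The authors' log2 matrix of these arrays was an alternative. Log10 ratios were converted to log2, without control spots and outlier-marked spots, averaged over the spots of each probe and centred on the median of the array. Probes well above background in both channels on at least 4 of the 6 MDA-MB-231 arrays entered a test in limma 3.58.1 in R 4.3.3 on all 30 arrays, with 1 mean per line and window, array weights with 1 variance factor per line, and Benjamini-Hochberg adjustment at 0.05. Symbols came from the files, updated through the RefSeq gene table, and each gene was read from its brightest tested probe. The precision is limited by the number of arrays.

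The members and gene lists were chosen with earlier results of these data known. The rule for named genes took all measured ID and feedback genes, up to 12 higher and 12 lower probes past the threshold or, where fewer than 4 passed, the 8 with the smallest p, and up to 4 genes of each other list. A few genes that the rule takes are not reported here. The alternatives were normexp (offset 50) with loess or median scaling, the log2 matrix, other filters, outlier spots kept, the 6 arrays alone, no weights, slide as a random block, scan batch as a term, 1 mean for the later arrays, and leaving out each array or line.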

Additional observations from a re-analysis of the deposited data

Results flagged for a closer look

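In 2 of the genes above, every later array of MDA-MB-231 lay below its first hour while every later array of another line lay above that line's own. For EDN2 the later difference was -0.73 in MDA-MB-231 against 0.60 in HCC1954, 1.10 in MDA-MB-361 and 0.63 in T-47-D. For SLCO4A1 it was -0.47 against 0.13 in HCC1954 and 0.26 in T-47-D. These differences between pairs of lines were not tested. The test against the mean of all 4 other lines did not pass for either gene, with an adjusted p of 1.00 in limma. Both genes were listed above among the smallest p-values of that test, and such a list favours genes that differ between lines. Their opposed direction is therefore no separate observation. The share of all probes with this opposed pattern was not counted. In MDA-MB-231 alone, 4.31% of the probes with a value on every array had every later array below the first hour. For EDN2 the highest later and the lowest first-hour arrays were almost equal.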

How the results depend on the processing

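The counts of probes past an adjusted p of 0.05 for the later arrays, 3-6 h and 12-24 h against the first hour, for 12-24 h against 3-6 h and for the difference from the other lines were 0, 0, 1, 0 and 0. They became 1, 1, 0, 1 and 1 with normexp and loess, all the same probe, BC018676, and 11, 8, 29, 28 and 9 with no filter on signal. Without array weights they were 2 (ATOH8 and ID3), 0, 6 (ATOH8, ID3, both ID2 probes, BG216229 and FRMD3), 1 and 0. The 12-24 h count was 0 with median scaling, with the 6 arrays alone and with scan batch as a term. Leaving out 1 MDA-MB-231 array gave ranges of 0 to 3990, 0 to 1, 0 to 8862, 0 to 6988 and 0 to 1477, the highest without the 24 h array except for 3-6 h, whose highest was without 30 min. The other alternatives kept each count that was rerun under them. Using 1 mean for the later arrays was run only for the count of the later arrays. Leaving out each other line was run only for the difference from the other lines. The 12-24 h count, with its call of ATOH8, was thus not refitted without any of those lines. The 771 single-array 2-fold differences became 3001 with all probes and 474 with normexp and loess. Of 107 named values, the 1 past the threshold, ATOH8 at 12-24 h, kept its sign. With median scaling 22 others changed sign, PRDM1, SNAI2, BNIP3, SMAD4, TGIF1, TOB1 and SKI among them. TGFB2 went from -0.32 to 0.06 and HSPD1 from -0.29 to 0.04. With loess 2 changed sign (FST and HSPA1A), and with scan batch as a term 4 (SKI, FST, SOST and HSPA1A). Within scan batches 1 and 2 the counts were 2 and 11. When 1 array was left out, 1 to 16 changed sign, the most without 12 h. Probes of a gene other than its brightest were not rerun as a separate alternative, except the second ID2 probe, tested in each. The labels give no replicate numbers to pair by; slide, which joins each 3-6 h array to a first-hour array, was fitted only as a random block, and the within-slide values are given above. With 1 array per time point, change over a window and array error cannot be told apart, and no dye was swapped.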

Other observations

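At 24 h the log2 ratio differed with the length of the gene. Bright probes were ranked by the span of their gene in RefSeq and split into 5 classes of 3147 or 3148 probes, and the median was 0.06 in the class of shortest genes (median span 5002 bases) and 0.04, 0.01, -0.04 and -0.10 in the next 4, the last with a median span of 149894 bases. At 12 h the same medians were 0.02, 0.02, 0.02, 0.03 and 0.06, and on the 4 earlier arrays they stayed between -0.04 and 0.02. This is a description of single arrays, and its relation to the opposition between 12 h and 24 h was not tested.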
